A study of Mus musculus with 6 samples.

Results

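Glucose, amino acids and monocarboxylates such as lactate cross cell membranes on solute carriers, and 7 gene families that carry them were followed here in the mouse uterus on day 4 of pregnancy. The carriers were all genes whose symbol is Slc1a, Slc2a, Slc6a, Slc7a, Slc16a, Slc38a or Slc43a followed by a number. Of the 56748 genes in the tables, 83 were carriers by this rule. Of 86 symbols that begin this way, 3 were left out, namely the pseudogene Slc2a4rg-ps and the loci Slc7a6os and Slc6a19os, which are other genes named after a neighbour. The rule used names alone and no measured value.

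Polyadenylated RNA was sequenced from uteri labelled Zip10 cKO (3 libraries, genotype given as a conditional knockout of Zip10) and from uteri labelled Control (3 libraries, genotype given as WT). All were taken at 1600 h on day 4. The series describes the knockout as specific to the uterus and the tissue as endometrium, while the sample labels say uterus. The strain, the age, the Cre driver and the deleted exons are not stated in the labels. The labels do not say that each library came from its own animal, so a p-value here reflects the spread between libraries, which may be technical.

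Slc39a10, which encodes the zinc importer ZIP10, had 10.1, 17.4 and 20.4 TPM (a level per transcript length that is scaled to the same sum in each library) in the libraries labelled Zip10 cKO 1, 2 and 3, against 12.3, 17.3 and 16 TPM in Control 1, 2 and 3. The library labelled Zip10 cKO 1 was below all 3 Control libraries and the other two were above them, so the mean was not lower in Zip10 cKO, with a log2 fold change of 0.00 ± 0.24 (SE). A gene total also counts the exons that a deletion leaves, so it does not check the genotype labels, and directions below are those of the labels. Total counts ranged from 19643069 to 22809574 per library. On the first axis of a multidimensional scaling, Zip10 cKO 1 lay at -1.58 and the other 5 libraries between -0.0178 and 0.767. At its default setting this scaling rests on the tested genes that differ most between pairs of libraries, not on all genes. Values without a library are given for some of the carriers whose log2 fold change that library moves, and not for all of them. Small values near 0, such as those of Slc6a6, can change sign.

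Glucose enters cells by facilitated diffusion on the GLUT proteins of the Slc2 family. Amino acids are taken up with sodium by the Slc1, Slc6 and Slc38 families, exchanged across the membrane by the Slc7 light chains, most of which need a heavy chain such as Slc3a2, and passed along their gradient by Slc43 proteins. Lactate and pyruvate move with protons on some Slc16 proteins, held at the surface by the ancillary protein basigin (Bsg). In rodents the uterus of early pregnancy feeds the blastocyst through its luminal fluid and stores glycogen, and the stroma that becomes decidua takes up much glucose.

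The day 4 uterus expressed most of these carriers, led by a neutral amino acid exchanger, a glucose carrier and a sodium-coupled glutamine carrier. By mean TPM over the 6 libraries, 2 carriers were at 100 TPM or more, 24 at 10 or more, 50 at 1 or more and 33 below 1. In whole tissue, fewer cells of a type and less RNA per cell cannot be told apart. Summed over all 83, the carriers had 1050, 1002 and 1023 TPM in Zip10 cKO 1, 2 and 3, against 947.6, 1004 and 941.6 TPM in Control 1, 2 and 3. Those sums overlapped between the groups, with means of 1020 ± 24.1 TPM in Zip10 cKO and 965 ± 34.7 TPM in Control (SD, n = 3 each). The top pair, Slc1a5 and Slc2a3, held 22.8% to 31.5% of the sum in each library, and the top 5 held 42.3% to 51.9%.

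No carrier passed the test between the genotypes. The quasi-likelihood test of edgeR called 0 of the 56 carriers that had enough counts, at an adjusted p of 0.05 over all genes, and the same test called 0.0% of all 16737 genes tested. The smallest adjusted p was 0.747 among the carriers, shared by Slc38a1 and several others, and 0.626 among all genes. At an unadjusted p under 0.05 there were 5 carriers, which is 8.93% of those tested beside 6.46% of all genes. Of these, 4 were higher in Zip10 cKO (4.48% of all genes were) and 1 was lower (1.98% of all genes were). DESeq2 called 0.185% of 19980 genes, edgeR's likelihood ratio test 0.179% of 16737 and limma-voom 0.0%, and none of these calls was a carrier. Of all 16737 genes, 49.4% had a positive log2 fold change, beside which the counts by direction below are to be read.

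**Figure D1:**
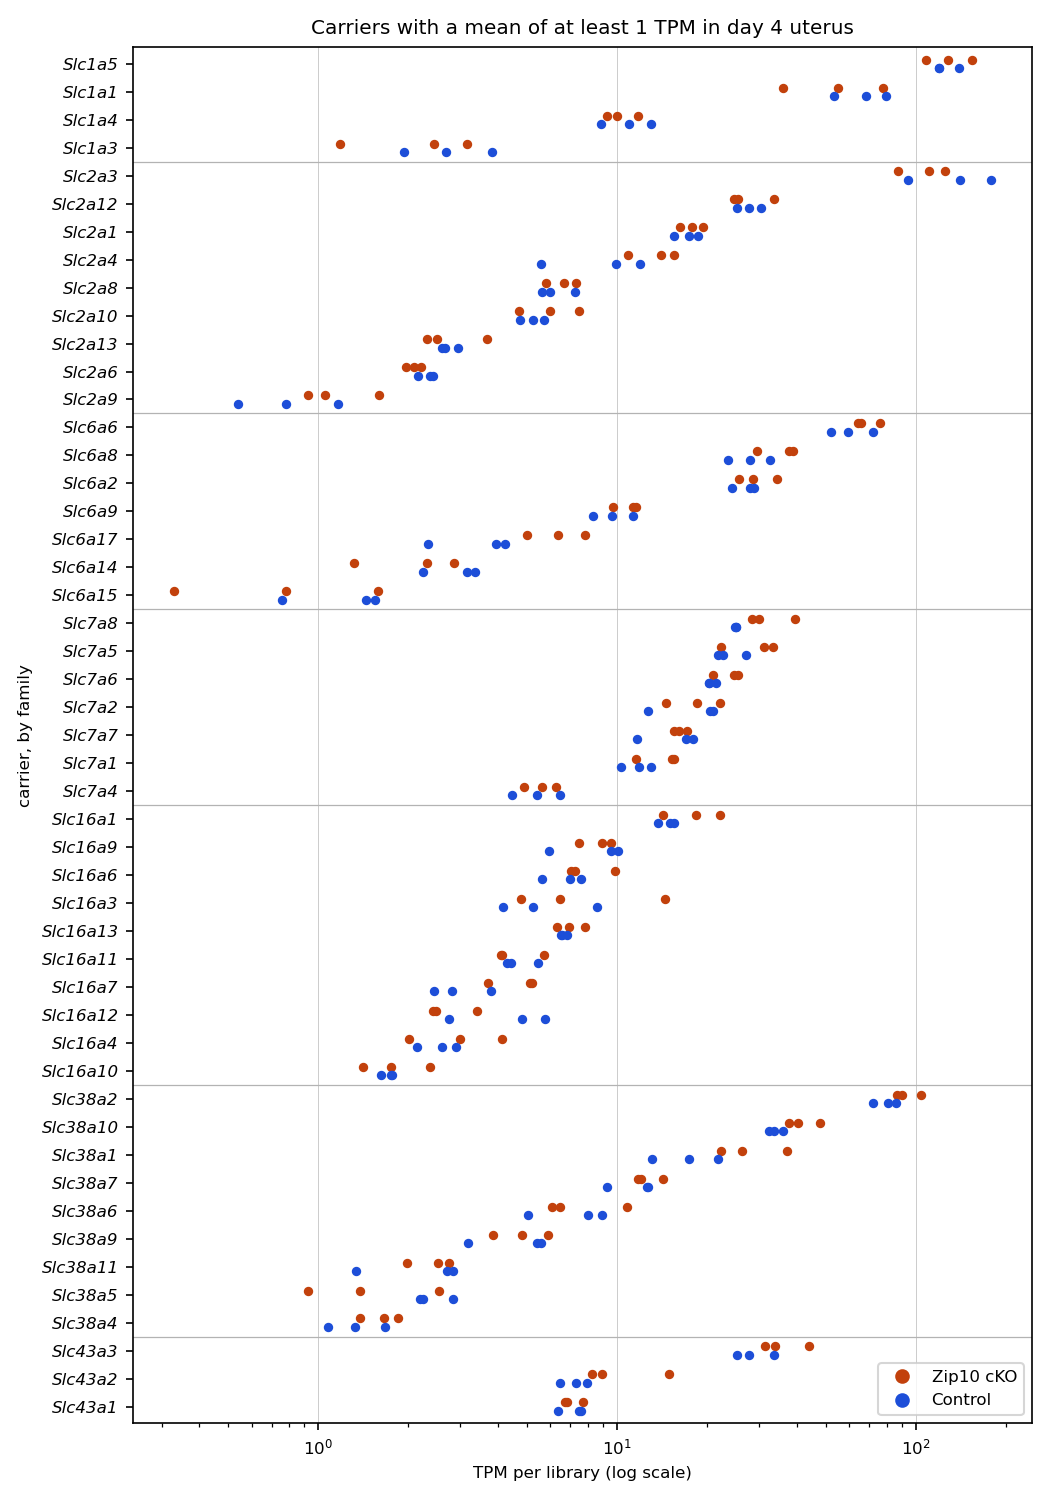
Deposited TPM per library on a log scale for 49 carriers with a mean of at least 1 TPM, by family, with Zip10 cKO and Control as separate colours and 1 point per library. Slc1a5 and Slc2a3 lie near or above 100 TPM in most libraries and the points of the groups overlap for all but 6 carriers.

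Among the glucose carriers, Slc2a3 led and Slc2a12, Slc2a1 and Slc2a4 followed. Slc2a3, the high-affinity glucose carrier GLUT3, had 111, 125 and 87.4 TPM in Zip10 cKO 1, 2 and 3, against 179, 141 and 94.6 TPM in Control 1, 2 and 3. Control 1 and Control 2 were the highest and the third control lay among the Zip10 cKO libraries. Its log2 fold change from counts was -0.44 ± 0.25 (SE), and the 95% interval of the fold of Zip10 cKO over Control ran from 0.491 to 1.11 (edgeR adjusted p = 0.758). Without Control 1 the log2 fold change was -0.17, and without Control 3 it was -0.68 and the groups separated. Slc2a1, the widely expressed GLUT1, had 17.9, 19.4 and 16.3 TPM in Zip10 cKO, against 17.5, 15.6 and 18.7 TPM in Control. These are nearly level, with a fold of 1.00 and a 95% interval from 0.827 to 1.22. The level of Slc2a3 was 6.20, 6.46 and 5.37 times that of Slc2a1 in Zip10 cKO 1, 2 and 3, against 10.2, 9.08 and 5.06 times in Control 1, 2 and 3.

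Slc2a12, which encodes GLUT12, had 24.7, 25.4 and 33.5 TPM in Zip10 cKO, against 25.2, 30.3 and 27.8 TPM in Control. Slc2a4, the insulin-responsive GLUT4 of muscle and fat, had 15.5, 14.1 and 10.9 TPM in Zip10 cKO, against 9.95, 5.56 and 12 TPM in Control. The low value of Control 2 stood below the other libraries, and the fold of Slc2a4 was 1.31 with a 95% interval from 0.863 to 1.98. Its log2 fold change of 0.39 ± 0.26 (SE) was 0.12 without Control 2. Slc2a8, which encodes the intracellular GLUT8, had 5.63 to 7.33 TPM over all libraries. Over the family, 10 of 12 members were tested, 4 with a positive and 6 with a negative log2 fold change (Zip10 cKO over Control), with a median of -0.05; on the TPM scale 6 were positive and 4 negative.

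The Slc1 family was held up by Slc1a5, which made up 55.6% to 73.2% of its summed TPM. Slc1a5, the neutral amino acid exchanger ASCT2 that carries glutamine, had 128, 108 and 154 TPM in Zip10 cKO 1, 2 and 3, against 120, 120 and 140 TPM in Control 1, 2 and 3. The groups overlapped throughout, and the 95% interval of the fold ran from 0.765 to 1.17. For Slc1a5 the log2 fold change was -0.08 ± 0.13 (SE), and -0.22 without Zip10 cKO 3, where the groups separated. Slc1a4, the related exchanger ASCT1, had 9.30, 11.8 and 10 TPM in Zip10 cKO, against 11.0, 13.0 and 8.84 TPM in Control, so that Slc1a5 stood 9.12 to 15.9 times above it in the same library.

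Slc1a1, the glutamate, aspartate and cysteine carrier EAAT3, was uneven between the libraries. It had 36.1, 54.8 and 77.7 TPM in Zip10 cKO 1, 2 and 3, against 53.4, 79.5 and 68.0 TPM in Control 1, 2 and 3. Zip10 cKO 1 lay below all others and Zip10 cKO 3 lay among the highest. Its log2 fold change was -0.35 ± 0.26 (SE), but -0.10 without Zip10 cKO 1 and -0.65 without Zip10 cKO 3, where the groups separated. The gene shares exon positions with 4430402I18Rik. All 6 tested members of the family had a negative log2 fold change, between -0.35 and -0.02, but 2 were positive on the TPM scale, Slc1a5 (0.03) among them, and 3 without Zip10 cKO 1. With all libraries none of the 6 had groups that separated, while 12.7% of all genes tested did. Of all genes tested, 49.4% had a positive log2 fold change.

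Of the sodium-coupled SNAT carriers of the Slc38 family, 2 neighbours on chromosome 15 had all 3 Zip10 cKO libraries above all 3 Control libraries, an order that 6.93% of all genes tested showed. Slc38a1, which encodes the glutamine carrier SNAT1, had 167, 111 and 114 CPM (counts scaled by TMM to a shared library size, not per length) in Zip10 cKO 1, 2 and 3, against 70.6, 83.7 and 103 CPM in Control 1, 2 and 3. Zip10 cKO 1 stood well above the rest and Control 3 came close to the lower pair of Zip10 cKO libraries. The log2 fold change was 0.60 ± 0.19 (SE), a fold of 1.52 with a 95% interval from 1.12 to 2.07 (unadjusted p = 0.0137, edgeR adjusted p = 0.747). Without Zip10 cKO 1 it was 0.39, and over the alternatives its adjusted p ranged from 0.351 to 0.989.

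Slc38a2, the amino acid carrier SNAT2, known in cultured cells to be induced when amino acids are short, had 347, 309 and 311 CPM in Zip10 cKO, against 307, 300 and 255 CPM in Control. The gap between the groups was narrow, with Control 1 just under the lower Zip10 cKO libraries. The log2 fold change was 0.17 ± 0.11 (SE), and the 95% interval of the fold ran from 0.938 to 1.34. Without Control 3 it was 0.08 and the groups overlapped. In GENCODE M21, Slc38a1, Slc38a2 and Slc38a4 follow each other as coding genes; Slc38a4, an amino acid carrier of liver and placenta, had only 1.08 to 1.85 TPM and groups that overlapped.

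Slc38a10, a less studied member of the family, had 47.8, 37.7 and 40.4 TPM in Zip10 cKO, against 32.2, 33.6 and 36.1 TPM in Control. Its groups separated in TPM but overlapped in CPM, and the log2 fold change of 0.22 ± 0.12 (SE) was 0.11 without Zip10 cKO 1. Slc38a3, the liver and kidney glutamine carrier SNAT3, was near the floor, with 0.20, 0.12 and 0.15 TPM in Zip10 cKO, against 0.46, 0.29 and 0.42 TPM in Control. Those levels rest on 3 to 10 counts per library, below the filter on counts. With no filter, edgeR gave a log2 fold change of -1.01 (unadjusted p = 0.111) with groups that separated, and DESeq2 gave -1.03 (unadjusted p = 0.253). Over the family, the summed TPM was 218, 176 and 191 in Zip10 cKO, against 149, 171 and 163 in Control, and 7 of 9 tested members had a positive log2 fold change (median 0.08).

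Expression of the Slc7 exchangers was spread over many members. Slc7a8, the light chain LAT2 for large neutral amino acids, had 112, 85.7 and 86.9 CPM in Zip10 cKO 1, 2 and 3, against 80.5, 74.1 and 75.8 CPM in Control 1, 2 and 3. The groups did not overlap, and the log2 fold change was 0.30 ± 0.12 (SE), a fold of 1.23 with a 95% interval from 1.02 to 1.49 (unadjusted p = 0.0347, edgeR adjusted p = 0.747). Without Zip10 cKO 1 it was 0.17. Slc7a5, the leucine exchanger LAT1, had 33.4, 31.2 and 22.4 TPM in Zip10 cKO, against 27.0, 21.9 and 22.6 TPM in Control. The groups overlapped, and the ratio of Slc7a8 to Slc7a5 was 1.18, 0.908 and 1.34 in Zip10 cKO, against 0.919, 1.15 and 1.12 in Control. The log2 fold change of Slc7a5 was 0.22 ± 0.18 (SE), and 0.39 without Zip10 cKO 3, where the groups separated.

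Slc7a1 and Slc7a2, the cationic amino acid carriers CAT1 and CAT2 that import arginine, overlapped between the groups. Slc7a1 had 15.5, 15.3 and 11.6 TPM in Zip10 cKO, against 13.0, 11.9 and 10.3 TPM in Control. Its log2 fold change was 0.18 ± 0.16 (SE), and 0.32 without Zip10 cKO 3, where the groups separated. Slc7a2 had 14.6, 22.2 and 18.5 TPM in Zip10 cKO, against 12.7, 20.5 and 21 TPM in Control. Slc7a11, the cystine and glutamate exchanger xCT, was low, with 0.91, 0.49 and 0.71 TPM in Zip10 cKO, against 0.42, 0.80 and 0.71 TPM in Control. Slc3a2, the heavy chain 4F2hc that pairs with Slc7a5, Slc7a8 and Slc7a11, was above all 3 of them in TPM, with 116, 100 and 98.0 TPM in Zip10 cKO, against 98.0, 88.8 and 91.0 TPM in Control. Its log2 fold change was 0.08 ± 0.11 (SE). Over the Slc7 family, 6 of 9 tested members had a positive log2 fold change (median 0.06), and the summed TPM was 152, 145 and 127 in Zip10 cKO, against 117, 125 and 124 in Control.

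The Slc43 family has 3 members, all measured. Slc43a2, the branched-chain amino acid carrier LAT4, had 58.7, 35.5 and 34.5 CPM in Zip10 cKO 1, 2 and 3, against 29.9, 28.1 and 33.6 CPM in Control 1, 2 and 3. Zip10 cKO 1 was far above the other 5 libraries, and Control 3 nearly met the lower Zip10 cKO libraries. The log2 fold change was 0.49 ± 0.21 (SE), a fold of 1.40 with a 95% interval from 1.01 to 1.95 (unadjusted p = 0.0446, edgeR adjusted p = 0.747), and 0.19 without Zip10 cKO 1. Slc43a2 shares exon positions with Gm45606. Slc43a3, which carries purine nucleobases, had 44.0, 31.3 and 33.8 TPM in Zip10 cKO, against 25.3, 27.6 and 33.7 TPM in Control. Its log2 fold change of 0.20 ± 0.16 (SE) was -0.00 without Zip10 cKO 1. Over the family, 2 members had a positive log2 fold change and 1 a negative one, and without Zip10 cKO 1 the counts were 1 and 2. Slc43a1, the related LAT3, had the smallest spread among the 50 carriers at 1 TPM or more, with 6.36 to 7.70 TPM over the 6 libraries.

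Promoter windows are shown for Slc38a2 and Slc43a2, as carriers whose groups did not overlap, and for Slc7a11, whose promoter is a textbook target of the amino acid response. They are the 250 bases upstream of a RefSeq start in build GRCm38.p6, which held a window for 59 of the 83 carriers (80 windows) and for 4 of the 6 with separated groups. Capitals mark the amino acid response element TGATGNAA and the CCAAT box CCAAT on either strand; the E-box CACGTG was searched too. In the windows printed no match overlaps another. Sequence outside the windows, such as introns, was not searched, so a window without a match does not show that a gene lacks the motif. The Slc7a11 window (chr3:50443614-50443863, minus strand) holds TGATGNAA starting 66 and 47 bases upstream and CCAAT at 216, and the Slc38a2 window (chr15:96699729-96699978, minus strand) holds none of the 3 motifs. Slc43a2 has 2 starts, and CCAAT lies 94 and 62 bases upstream of the first (chr11:75531444-75531693, plus strand) and 71 and 40 bases upstream of the second (chr11:75531862-75532111, plus strand).
Slc7a11: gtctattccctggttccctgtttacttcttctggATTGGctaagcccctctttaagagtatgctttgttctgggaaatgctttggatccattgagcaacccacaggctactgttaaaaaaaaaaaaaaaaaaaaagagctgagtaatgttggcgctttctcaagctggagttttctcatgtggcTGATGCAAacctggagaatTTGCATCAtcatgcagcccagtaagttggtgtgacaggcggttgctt
Slc38a2: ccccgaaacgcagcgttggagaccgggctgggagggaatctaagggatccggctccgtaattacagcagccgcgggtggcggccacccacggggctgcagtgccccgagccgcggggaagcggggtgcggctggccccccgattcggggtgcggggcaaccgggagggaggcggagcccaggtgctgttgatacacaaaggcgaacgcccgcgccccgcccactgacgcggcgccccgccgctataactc
Slc43a2, first start: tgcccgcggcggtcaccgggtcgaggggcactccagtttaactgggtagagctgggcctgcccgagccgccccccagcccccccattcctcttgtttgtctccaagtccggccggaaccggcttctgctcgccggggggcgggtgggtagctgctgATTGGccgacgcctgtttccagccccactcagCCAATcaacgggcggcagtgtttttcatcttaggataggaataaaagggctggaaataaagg
Slc43a2, second start: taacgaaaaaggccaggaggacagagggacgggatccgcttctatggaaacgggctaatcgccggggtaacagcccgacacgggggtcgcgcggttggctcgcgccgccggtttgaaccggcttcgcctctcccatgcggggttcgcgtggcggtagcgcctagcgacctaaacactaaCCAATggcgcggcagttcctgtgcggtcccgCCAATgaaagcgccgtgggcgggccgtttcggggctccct

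Over all carriers, TGATGNAA was in 4 of 80 windows (5%), beside 3.45% of all 32851 windows of this length. CACGTG was in 10 (12.5%), beside 6.02%, and CCAAT in 22 (27.5%), beside 33.8%. A match is a run of letters and not a bound site, and these windows are in another build than the deposited counts.

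The Slc6 family holds carriers of taurine, creatine, monoamines and amino acids. Slc6a6, the taurine carrier, had 65.8, 76.1 and 64.4 TPM in Zip10 cKO, against 59.2, 72.0 and 52.2 TPM in Control, and made up 40.4% to 49.3% of the family's sum. Its groups overlapped and the log2 fold change was 0.07 ± 0.14 (SE). Slc6a8, the creatine carrier, had 75.9, 63.5 and 69.7 CPM in Zip10 cKO, against 51.8, 50.5 and 63.0 CPM in Control. The groups were apart in CPM by a small gap between Zip10 cKO 2 and Control 3, and overlapped in TPM. The log2 fold change was 0.34 ± 0.12 (SE), a fold of 1.27 with a 95% interval from 1.05 to 1.53 (unadjusted p = 0.0202, edgeR adjusted p = 0.747).

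Slc6a2, the noradrenaline carrier of sympathetic nerves, ranked 10 among the carriers by TPM, with 34.5, 28.5 and 25.6 TPM in Zip10 cKO, against 27.9, 28.7 and 24.3 TPM in Control. Slc6a17, a vesicular neutral amino acid carrier known from neurons, had 30.6, 18.3 and 19.2 CPM in Zip10 cKO, against 10.7, 17.0 and 18 CPM in Control. Its groups were barely apart, with Zip10 cKO 1 high and Control 1 low. Its log2 fold change of 0.57 ± 0.26 (SE) was 0.30 without Zip10 cKO 1 and 0.36 without Control 1 (unadjusted p = 0.056 with all libraries). Slc6a14, a broad carrier of neutral and cationic amino acids, had 1.32, 2.32 and 2.85 TPM in Zip10 cKO, against 3.16, 3.35 and 2.25 TPM in Control. The fold was 0.709 with a 95% interval from 0.436 to 1.15, and the log2 fold change of -0.50 ± 0.31 (SE) was -0.23 without Zip10 cKO 1. Summed over the family, Zip10 cKO had 160, 154 and 151 TPM, against 127, 147 and 129 TPM in Control. Of its 7 tested members, 5 had a positive and 2 a negative log2 fold change (median 0.07).

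The Slc16 family holds the proton-coupled lactate carriers and relatives that carry other substrates. Slc16a1, the lactate carrier MCT1, had 22.1, 18.4 and 14.3 TPM in Zip10 cKO, against 15.5, 15.1 and 13.7 TPM in Control. The groups overlapped, with a fold of 1.17 and a 95% interval from 0.917 to 1.5. For Slc16a1 the log2 fold change of 0.23 ± 0.16 (SE) was 0.10 without Zip10 cKO 1 and 0.38 without Zip10 cKO 3, where the groups separated.

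Slc16a3, the lactate exporter MCT4 of glycolytic cells, had 14.5, 6.45 and 4.79 TPM in Zip10 cKO, against 8.61, 4.17 and 5.26 TPM in Control. The first library of each group was the highest of that group, and the log2 fold change of 0.35 ± 0.40 (SE) was -0.08 without Zip10 cKO 1 and 0.75 without Control 1. Slc16a12, a creatine carrier (MCT12), was the sole carrier with an unadjusted p under 0.05 and a lower level in Zip10 cKO, with 6.89, 10.4 and 7.20 CPM in Zip10 cKO, against 15.6, 17.0 and 8.26 CPM in Control. Control 3 lay between the Zip10 cKO libraries. The log2 fold change was -0.74 ± 0.29 (SE), a fold of 0.599 with a 95% interval from 0.379 to 0.945 (unadjusted p = 0.0319, edgeR adjusted p = 0.747), and -1.01 without Control 3. Bsg, the partner of MCT1 and MCT4, had 398, 387 and 384 TPM in Zip10 cKO, against 396, 387 and 407 TPM in Control. Over the Slc16 family, 12 of 14 members were tested, 8 with a positive and 4 with a negative log2 fold change (median 0.12). No tested member's groups separated, while those of 12.7% of all genes tested did.

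**Figure D2:**
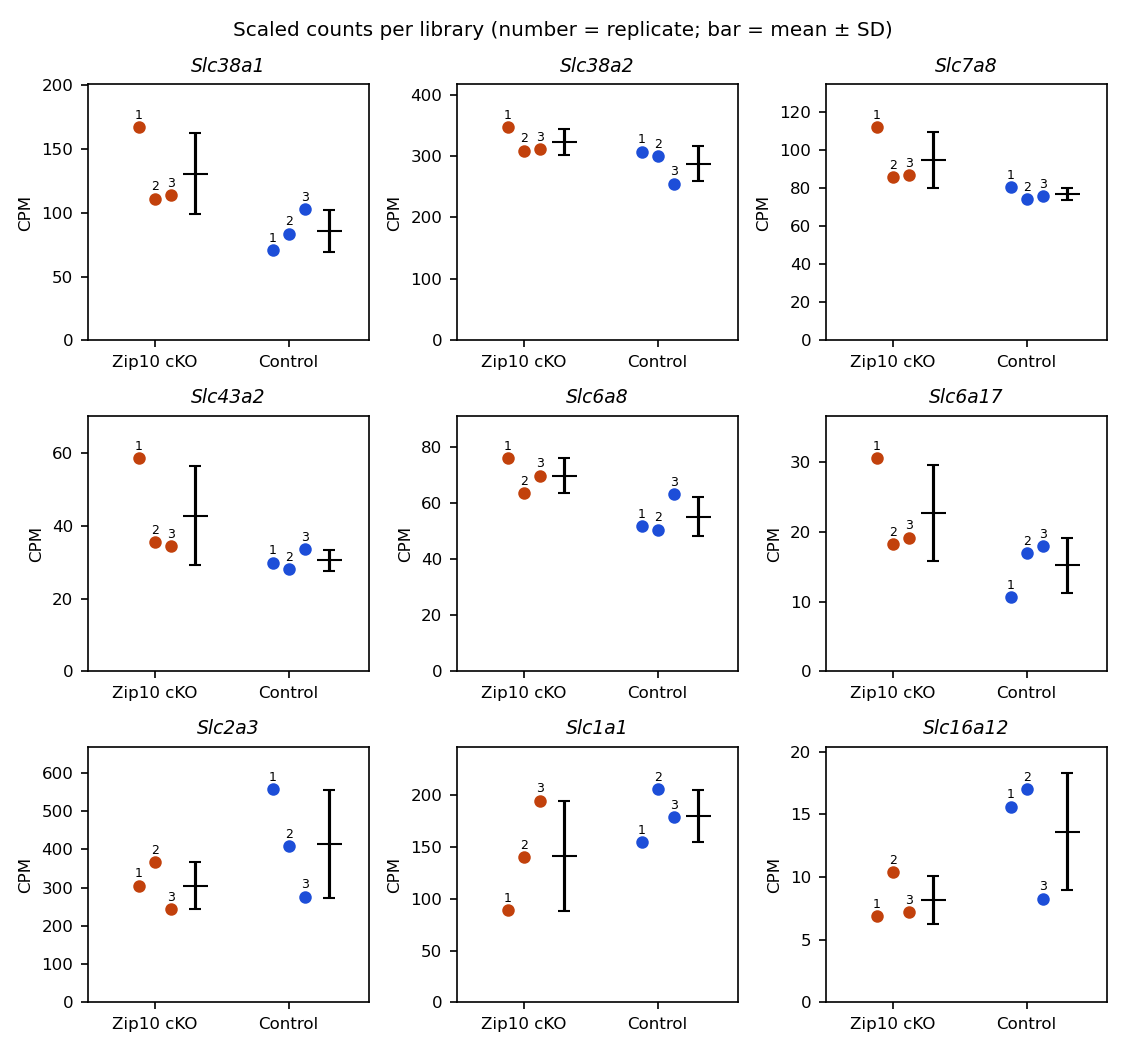
CPM after TMM scaling in each library for selected carriers, 1 panel per gene, with Zip10 cKO left of Control, replicate numbers at the points and bars for the mean ± SD (n = 3 each). In Slc38a1 and Slc43a2 Zip10 cKO 1 stands above the other libraries, and in Slc1a1 it stands below them.

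In all, 6 of the 56 tested carriers (10.7%) had groups that did not overlap in CPM, each with Zip10 cKO above Control: Slc38a1, Slc38a2, Slc6a8, Slc6a17, Slc7a8 and Slc43a2. Over all genes tested, 12.7% did not overlap, 6.93% with Zip10 cKO above and 5.78% below Control. The carriers' share is thus close to that of all genes when both directions are counted together. By direction, 10.7% of the carriers were above, beside 6.93% of all genes, and no carrier was below, beside 5.78%. The count of separated carriers under another size factor (RLE) was 3, namely Slc38a1, Slc7a8 and Slc43a2. The exact two-sided permutation test of CPM gave p = 0.1 for each of the 6, which is the smallest that 3 against 3 libraries can give. In TPM the count was also 6, with Slc38a10 in the place of Slc6a8.

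Across the 56, 32 carriers had a positive and 24 a negative log2 fold change, so 57.1% were positive beside 49.4% of all genes tested. On the TPM scale 40 of the 56 were positive, beside 10242 of the 16737 genes. The median from counts was 0.05 for the carriers and 0 for all genes, and the median SE of a carrier was 0.20. The range ran from -0.77 for Slc6a15 to 1.18 for Slc16a14, both chosen here for being the extremes. Slc16a14 was the single carrier past 1 in either direction, with an SE of 0.56 and an unadjusted p of 0.0678.

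**Figure D3:**
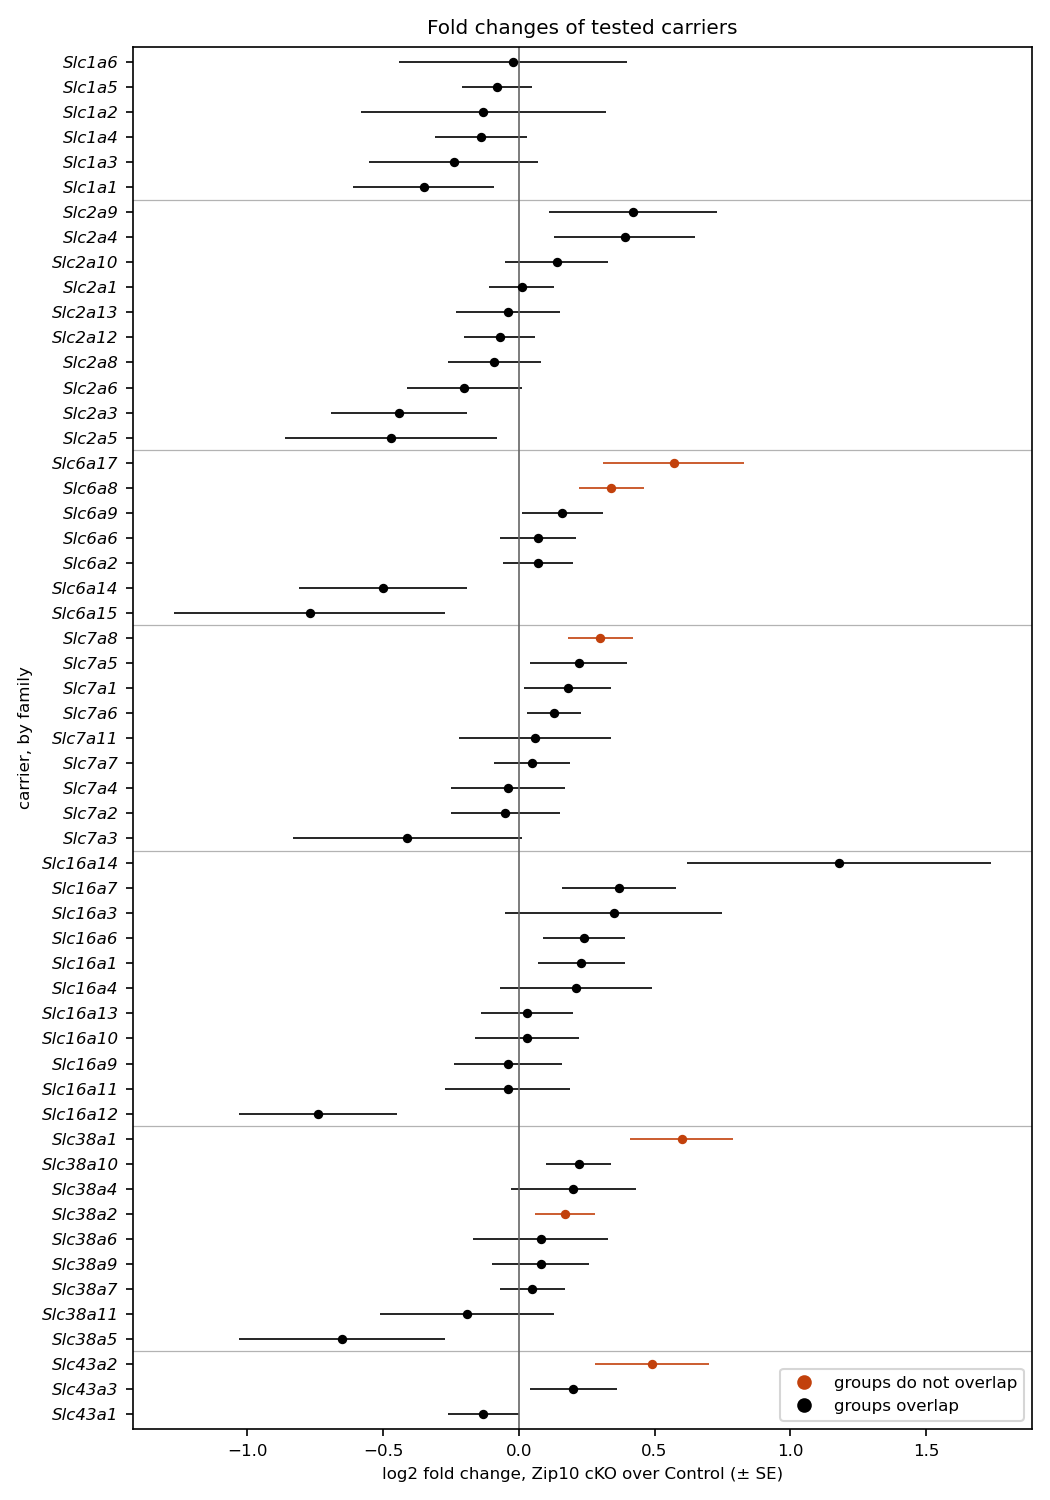
Log2 fold change of Zip10 cKO over Control with its SE for 55 tested carriers, by family, with the carriers whose groups do not overlap in another colour. The 6 coloured points are all right of 0, and the values run from -0.77 to 1.18.

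The order of levels was not sharp. Slc1a5 was above Slc2a3 in 3 of 6 libraries, and every pair of neighbours among the 25 most abundant carriers had ranges over the libraries that overlapped. Within single libraries some steps held throughout: Slc38a2 was above Slc6a6, and Slc38a10 above Slc43a3, in 6 of 6 libraries. Among all genes the ranks of Slc1a5, Slc2a3, Slc38a2, Slc6a6 and Slc1a1 by mean TPM were 908, 946, 1403, 1932 and 2047. Of the 12 highest carriers by TPM, 9 were also among the 12 highest by CPM, which is not per length.

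The carriers below the filter on counts were 27, of which 20 had some counts, at most 14 in a library and a mean of at most 0.392 TPM. The other 7, among them Slc2a7, Slc6a5, Slc6a16, Slc6a18, Slc7a12 and Slc7a15, had no count in any library. A count of 0 allows up to 3 counts, which is 0.132 to 0.153 CPM at these depths and covers counting error only. Most of the missing carriers were of the Slc6 family, of which 7 of 21 members were tested, with the neuronal glycine carrier Slc6a5 at 0. Slc2a2, the GLUT2 of liver and pancreatic islets, was below the filter.

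The spread between libraries was uneven. Among the 50 carriers at 1 TPM or more, Zip10 cKO 1 was the highest library for 20 and the lowest for 11, so it was outermost for 62.0%, beside 50.7% of the 15182 genes at that level. Of all genes at that level, 34.4% were highest and 16.7% lowest in Zip10 cKO 1. Control 1 was the lowest library for 20 of the 50 carriers, beside 34.2% of all genes at that level. In Zip10 cKO 1, 12 carriers lay more than 1.3-fold outside the range of the other 5 libraries. In each of the others, 0 to 4 carriers did so. This bound was chosen after the values were seen, and the share of all genes outside it was not computed. Those 12 included Slc38a1, Slc43a2, Slc43a3, Slc7a8 and Slc16a3 above and Slc1a1 below. The ratio of the highest to the lowest library had a median of 1.665 for these carriers and 1.49 for all genes, and 18 carriers spanned more than 2-fold.

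**Figure D4:**
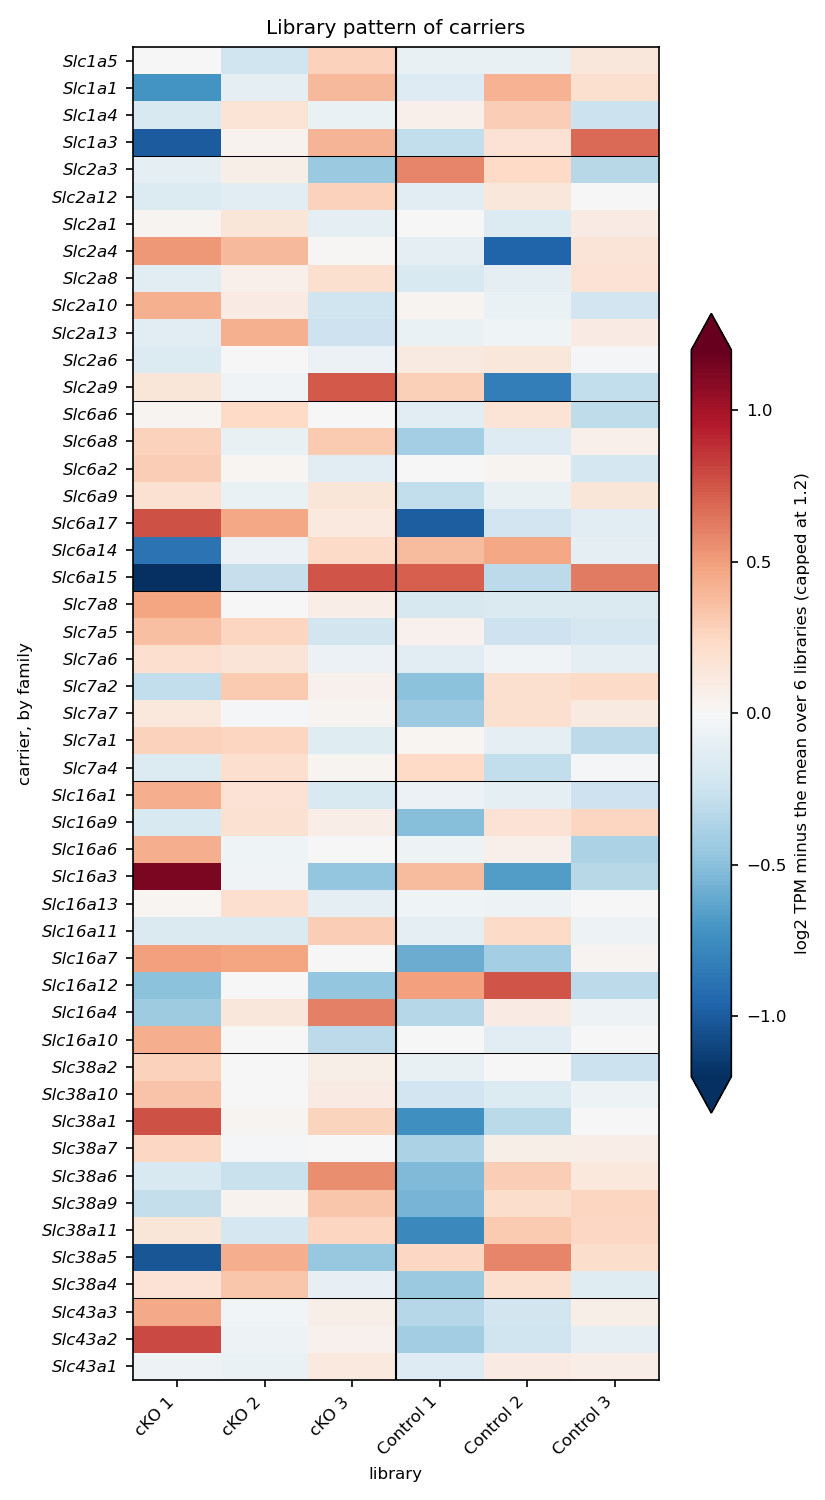
Log2 TPM minus the mean over 6 libraries for 49 carriers with a mean of at least 1 TPM, with the 3 Zip10 cKO columns left of the 3 Control columns and the colours capped at 1.2. Zip10 cKO 1 is the highest library for 20 and the lowest for 10 of the carriers drawn, and Control 1 is the lowest for 20. Of all genes at that level, 34.4% were highest and 16.7% lowest in Zip10 cKO 1, and 34.2% were lowest in Control 1.

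Markers of the cell types of the uterus moved between the same libraries. The summed TPM of 9 smooth muscle markers was 11100, 7040 and 7470 in Zip10 cKO 1, 2 and 3, against 4370, 4170 and 8040 in Control 1, 2 and 3. For 8 macrophage markers it was 905, 411 and 577 in Zip10 cKO, against 524, 376 and 467 in Control. Zip10 cKO 1 was the highest library for both, as it was for Slc38a1, Slc43a2 and Slc16a3. The 12 epithelial markers summed to 701, 1010 and 875 TPM in Zip10 cKO, against 1190, 1130 and 801 TPM in Control, with Zip10 cKO 1 the lowest, as for Slc1a1. The 12 stromal markers summed to 7680, 6810 and 6640 TPM in Zip10 cKO, against 4380, 5420 and 6010 TPM in Control, which did not overlap. Collagens made up much of that sum, and the list went both ways, with 8 positive and 4 negative log2 fold changes (median 0.19). The 2 stromal markers with the smallest p were Lum, at 0.49 ± 0.13 (SE), and Postn, at 0.88 ± 0.24 (SE). The stromal transcription factor Hand2 went the other way, at -0.26 ± 0.09 (SE).

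Counted over the lists, all 9 smooth muscle, all 8 macrophage and all 6 tested lymphocyte markers had a positive log2 fold change (medians 0.55, 0.57 and 0.70), and 10 of 12 epithelial and 8 of 9 endothelial markers a negative one (medians -0.29 and -0.13). The quasi-likelihood test of edgeR called none of these markers, but it called 0.0% of all 16737 genes tested, so this says nothing particular to them. The 8 lymphocyte markers summed to 62.7 to 78.7 TPM in Zip10 cKO, against 33.7 to 55.6 TPM in Control, with no overlap. The 7 gland markers summed to 164 to 590 TPM in Zip10 cKO, against 176 to 383 TPM in Control, and 5 red blood cell markers to 637 to 779 TPM, against 357 to 629 TPM in Control, where again the groups did not overlap for the red blood cell sum. Adipocyte markers summed to 0.0 to 5.82 TPM in Zip10 cKO, against 0.25 to 8.73 TPM in Control, and blastocyst markers to 3.81 to 4.20 TPM, against 2.71 to 3.88 TPM in Control. Of the 5 blastocyst markers only Eomes had enough counts to be tested, and it made up most of their sum. Eomes had 3.63, 4.20 and 3.76 TPM in Zip10 cKO, against 2.15, 3.65 and 3.40 TPM in Control. Of the 4 adipocyte markers 0 were tested. Every defining marker had some count in at least 1 library, which does not show that its cell type was present. The part of these cell types in the carriers' values was not tested.

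The genes around the carriers gave no call either, in a test that called 0.0% of all 16737 genes. Of 9 partner subunits and regulators of carrier surface level, 7 were tested, 3 with a positive and 4 with a negative log2 fold change (median -0.07). The regulators Txnip and Arrdc4, which are not subunits, were 2 of the 4 negative ones, at -0.07 ± 0.22 and -0.08 ± 0.15 (SE). Emb and Nptn, ancillary proteins of monocarboxylate carriers, had log2 fold changes of 0.20 ± 0.19 and 0.24 ± 0.16 (SE). Of 44 genes of glucose and lactate metabolism, 42 were tested, 18 positive and 24 negative (median -0.03). The smallest p among them belonged to Pygb, a glycogen phosphorylase, at 0.31 ± 0.11 (SE) and Pdk3, a kinase that inhibits pyruvate dehydrogenase, at -0.27 ± 0.11 (SE).

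Of 30 tested genes of amino acid response and sensing, 10 had a positive and 20 a negative log2 fold change (median -0.05). Vldlr, a lipoprotein receptor induced by amino acid stress in cultured cells, was at 0.43 ± 0.13 (SE) and Myc, a growth transcription factor, at -0.31 ± 0.13 (SE). A list of carriers of the same substrates from other families also held the heavy chain Slc3a2, already counted among the partner subunits. Of its 15 tested genes, 9 were positive and 6 negative (median 0.08). Among those, Slc5a8, a sodium-coupled monocarboxylate carrier, was at 0.78 ± 0.31 (SE) and Slc36a4, an amino acid carrier, at 0.30 ± 0.13 (SE). The quasi-likelihood test of edgeR called no gene of these 4 lists, as it called none of all genes tested.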

How the data were processed

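Per the labels' protocols, RNA from 6 uterus samples was selected with oligo(dT) beads, fragmented and primed at random. The build GRCm39 (mm39), STAR 2.7.10a and RSEM 1.3.3, with fastp 0.23.2 and edgeR 3.38.4 under R 4.2.1, are listed in the submitters' processing notes. For strand and annotation, settings were not given in the sources used. The authors deposited expected counts and TPM per gene and library, per the file headers. RSEM splits reads shared by several genes, and TPM is per effective length and keeps no depth.

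Of 56748 gene IDs, 52073 (91.8%) matched a symbol in GENCODE M21, which belongs to an older build and gave names and neighbours only. In it, 19 carriers share exon positions with another gene, mostly on the other strand, so that their reads may not be told apart. Levels between genes are compared in TPM.

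After rounding of the expected counts, filterByExpr (minimum count 10, minimum total 15) selected the genes and TMM scaled the libraries. Groups, taken from the sample titles, were compared by the quasi-likelihood test of edgeR 4.0.16 (R 4.3.3), two-sided, at a Benjamini-Hochberg adjusted p of 0.05 over 16737 genes. Intervals are 95% and come from the same fit. With 19643069 to 22809574 counts per library, a carrier below the filter had at most 14 counts in any of them, which is too few to show a modest difference.

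Named carriers were the 12 highest by mean TPM, the 2 highest of each family, those with groups that do not overlap and a mean of at least 1 TPM in the higher group, the 5 with the smallest p, and 21 with textbook roles. The 2 genes with the smallest p are named from the lists of metabolism, amino acid response, other carriers and stromal markers. Hand2, Eomes and the partners of the carriers are named outside this rule. From the other cell type lists no further gene is named. Carriers and lists were chosen with earlier results of these data known. The alternatives were DESeq2 1.42.0, edgeR's likelihood ratio test, limma-voom and limma-trend (limma 3.58.1), other size factors and filters, the replicate number as a block, and leaving out each library. Sequences are RefSeq promoters in GRCm38.p6. Some carriers enter the counts and sums but are not reported here by name.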

Additional observations from a re-analysis of the deposited data

How the results depend on the processing

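No carrier was called under any of the alternatives run. DESeq2 called 37 of all genes, edgeR's likelihood ratio test 30 and edgeR with no filter on low counts 15, against 0 in the quasi-likelihood test, and leaving out each library gave 0 to 2 calls. Carriers with groups that did not overlap numbered 3 with RLE factors, all shared with the 6 reported, and 8 to 17 with a library left out, where fewer libraries separate more readily (19.7% to 26.9% of all genes). The highest counts came without Zip10 cKO 3 (17), Control 3 (14) and Zip10 cKO 2 (13). On the TPM scale 40 carriers were positive and 16 negative, against 32 and 24 from counts. Of 28 named carriers tested, 11 changed the sign of the log2 fold change under at least 1 alternative and 17 under none. The cause of these differences was not tested. Same-numbered libraries deviated with correlations of 0.0916, 0.254 and 0.189. Zip10 cKO 1 correlated best with Control 3 (0.119), while Zip10 cKO 2 and Zip10 cKO 3 each correlated best with the Control of the same number. These correlations do not settle whether the numbers mark pairs, and the main test did not use them as pairs. With the replicate number as a block, edgeR called 0 genes and 0 carriers, and 1354 genes had an unadjusted p under 0.05, against 1081 without it. Of the 12 highest carriers by TPM, 9 to 12 stayed among the 12 under the alternatives. With 3 libraries per group, whole tissue and cell type markers that moved between libraries, small differences in a carrier could not be resolved, and Slc39a10 totals do not check the genotype.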
